A study of Cannabis sativa with 6 samples.

Results

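Among 29777 gene rows counted in flowers of feral hemp (Cannabis sativa), 33 genes were nearly silent in female flowers and stood highest, by a wide margin, in 1 male library, the one from Merick. They were chosen on these values. Each had under 1 CPM (a gene's reads scaled to a total of 1000000 reads assigned to genes) in each of the 3 female libraries, at least 5 CPM in the Merick male, and a Merick male CPM more than 3 times that of the Madison male and of the Knox male. The male against female difference and the Merick male peak are therefore given below as descriptions, with no test. The study sequenced RNA from male and female flowers of plants from 3 Nebraska locations, written Merick, Madison and Knox, with 1 library of each sex per location. Plants were grown in pots with a 16 hour day for 10 weeks and then an 11 hour day to bring on flowering, and no treatment or engineered line was involved. The sources used here do not say how many plants went into a library. The Merick male has no replicate, so every value of a single library stands without a replicate error.

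Hemp is dioecious: most plants bear either male or female flowers, and sex follows an XY system in which males carry the Y. A male flower is made up mostly of stamens, whose anthers hold the developing pollen and the tapetum, a nursing cell layer that feeds the pollen and supplies much of its coat. In flowering plants these tissues are known for transcripts that are scarce elsewhere and that come and go as the anther matures. The files give these 33 genes only NCBI LOC identifiers, and the gene table used here gives no descriptions, so no function or cell type is assigned to any of them. The sources used here do not state the flower stage.

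Gene counts summed to between 40334171 and 46045338 in the male libraries and between 26945432 and 38672535 in the female libraries, so that 1 read was worth 0.022 CPM in the Merick male and 0.037 CPM in the Knox female. The Merick male stood apart from the other males. Its log2(CPM + 0.5) values over genes correlated at 0.90 and 0.88 with the Madison and Knox males and at 0.89 to 0.90 with the females, while the Madison and Knox males correlated at 0.96 with each other. Of 121 genes at 5 CPM or more in every female and under 1 CPM in the Madison and Knox males, 111 reached 1 CPM in the Merick male. They summed to 1031 CPM in the Merick male, 58.6 CPM in the Madison male, 46.7 CPM in the Knox male and 2825 to 4105 CPM in the females. The low sums in the Madison and Knox males follow from how these genes were chosen, and no matching list was made for another male. Whether this female-type signal in the Merick male has a part in the results below was not tested. In these bulk libraries, more cells of a type and more RNA per cell cannot be told apart.

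The 33 genes together received 96041 reads in the Merick male, 19697 reads in the Madison male and 6388 reads in the Knox male. As a share of the library this was 2086 CPM in the Merick male (exact Poisson 95% interval 2073 to 2099, counting error only), 480.0 CPM in the Madison male (473 to 487) and 158 CPM in the Knox male (155 to 162). The females held 3.85 CPM (Merick), 4.26 CPM (Madison) and 7.65 CPM (Knox) over all 33 genes. The Madison male thus lay above the Knox male in the sum. A few genes made up most of it, with 72.9% of the Merick male reads and 90.9% of the Madison male reads in 3 genes. Without the first 4 genes the sums were 391 CPM in the Merick male, 43.6 CPM in the Madison male and 17.8 CPM in the Knox male, in the same order.

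**Figure D1:**
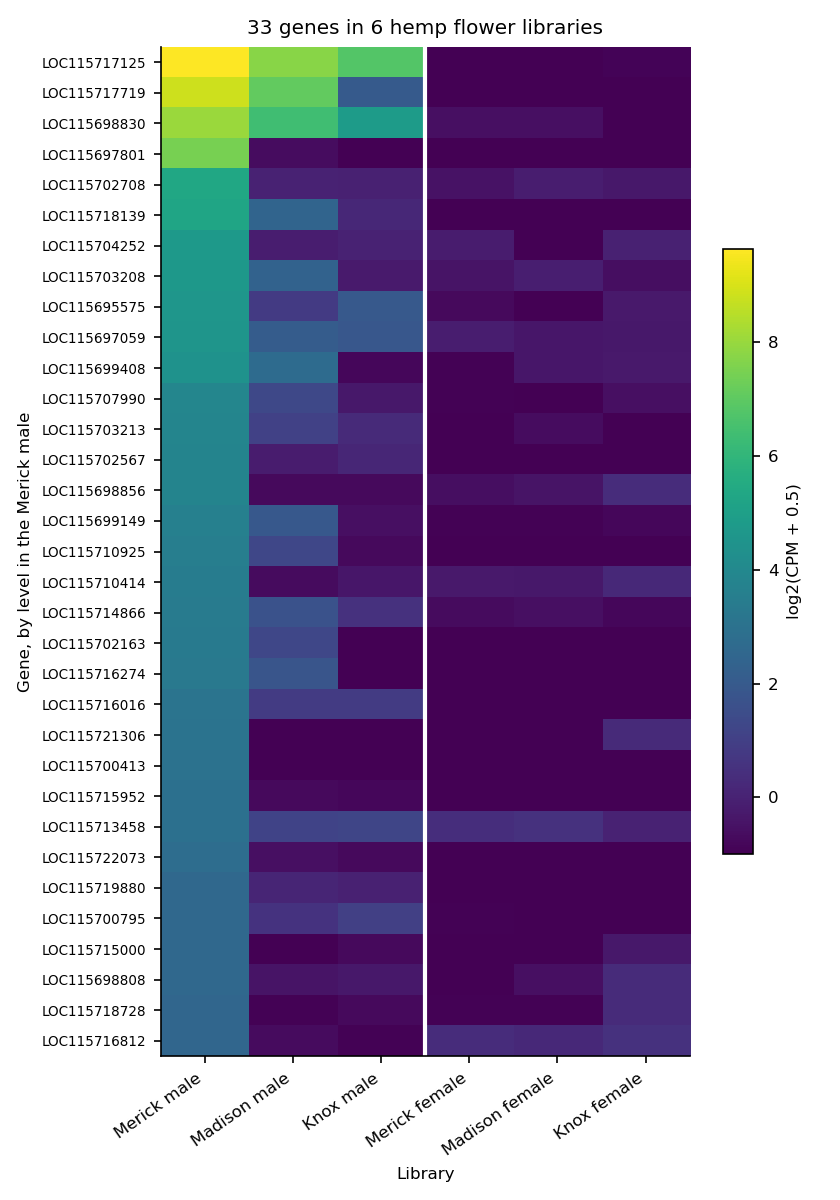
Level of each of the 33 genes (rows, by level in the Merick male) in each library (columns), as log2(CPM + 0.5). The Merick male column is bright throughout by the rule that chose the genes, and the Madison male is brighter than the Knox male in many rows.

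Most of these genes were modest in the Merick male. Its median was 11.1 CPM, with 13 genes between 5 and 10 CPM, 16 between 10 and 100 CPM and 4 above 100 CPM. The median was 1.24 CPM in the Madison male and 0.30 CPM in the Knox male. On the CPM + 0.5 scale the Merick male exceeded the next male by a median of 6.08-fold, and 11 genes exceeded it by 10-fold or more. CPM is not scaled by transcript length, so levels are compared between libraries within a gene and not between genes.

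Among the 4 genes above 100 CPM, 3 were strongly present in every male or in the Madison male as well. LOC115717125 (protein coding, chromosome 5 of the Pink pepper assembly) had 799 CPM in the Merick male, 218 CPM in the Madison male and 109 CPM in the Knox male, and a single read over all females. LOC115698830 (protein coding, chromosome 8) had 259.98 CPM in the Merick male, 81.8 CPM in the Madison male and 28.1 CPM in the Knox male, against 0.18, 0.17 and 0 CPM in the Merick, Madison and Knox females. Both genes were plainly male flower transcripts in all 3 males, with the Merick male highest and the Knox male lowest.

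LOC115717719 (protein coding, X) had 461 CPM in the Merick male, 136 CPM in the Madison male and 3.50 CPM in the Knox male, and no read in any female. Here the Knox male was the exception, and the Madison male stood 39.0-fold above it. LOC115697801, which the table calls a long non-coding RNA and puts on chromosome 7, had 175 CPM in the Merick male from 8062 reads, 0.15 CPM in the Madison male from 6 reads, and no read in the Knox male or any female. It was 1198-fold higher in the Merick than in the Madison male, and at least 2354-fold higher than in the Knox male against a floor of 3 counts per library. It was the most one-sided of the 33 genes between the males on the CPM + 0.5 scale, at 272-fold over the next male.

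The next 8 genes by Merick male level, at 14.1 to 39.6 CPM there, fell into distinct patterns in the other males. In LOC115702708 (X) and LOC115704252 (chromosome 1) the other males were close to the females. LOC115702708 had 39.6 CPM in the Merick male, 0.51 CPM in the Madison male and 0.50 CPM in the Knox male, against 0.21, 0.40 and 0.30 CPM in the Merick, Madison and Knox females. LOC115704252 had 25.8 CPM in the Merick male, 0.41 CPM in the Madison male and 0.52 CPM in the Knox male, against 0.39, 0 and 0.48 CPM in the Merick, Madison and Knox females. The Merick male was 39.7-fold and 25.8-fold over the next male on the CPM + 0.5 scale for these genes.

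LOC115718139 (chromosome 5), LOC115703208 (X), LOC115699408 (X) and LOC115707990 (X) were graded across the males. LOC115718139 had 37.6 CPM in the Merick male, 4.85 CPM in the Madison male and 0.64 CPM in the Knox male, with no read in a female. LOC115703208 had 25.3 CPM in the Merick male, 4.53 CPM in the Madison male and 0.35 CPM in the Knox male, and its highest female, Madison, was at 0.43 CPM, above the Knox male. For LOC115699408 the levels were 20.7 CPM in the Merick male, 6.04 CPM in the Madison male and 0.074 CPM in the Knox male, the last from 3 reads. Its Madison and Knox females, at 0.29 and 0.33 CPM, lay above the Knox male too. LOC115707990 had 14.1 CPM in the Merick male, 1.95 CPM in the Madison male and 0.30 CPM in the Knox male, and at most 0.19 CPM in a female. In LOC115697059 (chromosome 7), by contrast, the other males were level, at 3.75 CPM in the Madison male and 3.20 CPM in the Knox male beside 22.8 CPM in the Merick male. LOC115695575 (chromosome 6) had 23.7 CPM in the Merick male, 1.24 CPM in the Madison male and 3.47 CPM in the Knox male, and was the 1 gene of the 33 more than 2 times higher in the Knox than in the Madison male on the CPM + 0.5 scale.

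**Figure D2:**
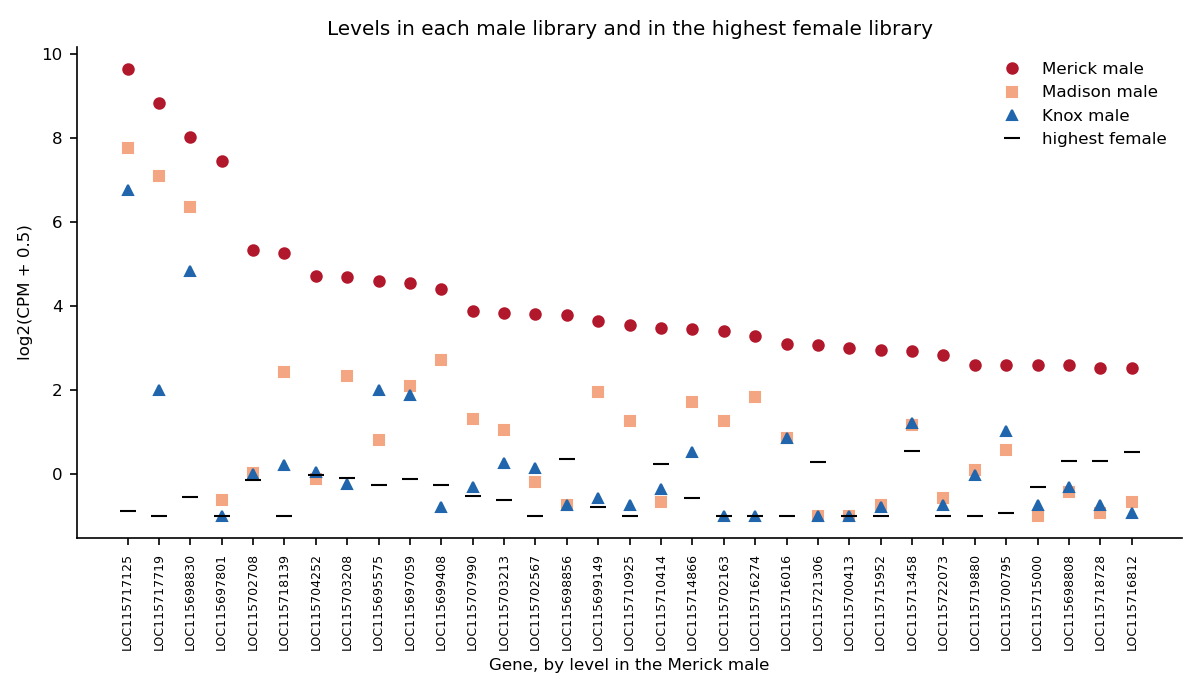
Level of each gene in the Merick (circle), Madison (square) and Knox (triangle) male and in its highest female library (dash), as log2(CPM + 0.5), with genes ordered by the Merick male. The Madison male lies above the Knox male in 20 genes, and in 8 genes at the right and centre both of these males lie at or below the highest female.

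Whether the Madison or the Knox male is the higher of the pair was not fixed by the rule, which treats them alike. The Madison male was higher in 20 of the 33 genes, the Knox male in 11, and both had no read in 2. With a fold of more than 2 on CPM + 0.5 as the mark, 11 genes (33.3%) were higher in the Madison than in the Knox male and 1 (3.03%) was higher in the Knox male. Over all 15525 genes at 5 CPM or more in a male, 6.81% were higher in the Madison male and 5.05% were higher in the Knox male by the same mark. The median Madison minus Knox difference was 0.16 on the log2(CPM + 0.5) scale, beside -0.05 over those 15525 genes. It was 1.57 over the 18 genes that reached 1 CPM in the Madison or Knox male, beside -0.05 over all 17681 genes that did so. With 1 library on each side there is no test of this difference.

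After LOC115717719 and LOC115699408, the largest difference in this direction was in LOC115716274, a long non-coding RNA by the table, on chromosome 2. It had 9.25 CPM in the Merick male, 3.05 CPM in the Madison male and no read in the Knox male or any female. LOC115702163 and LOC115710925, which the gene table does not hold, had 10.1 and 11.1 CPM in the Merick male, 1.90 and 1.88 CPM in the Madison male, and 0 and 0.099 CPM in the Knox male, with no read in a female. In the other direction, after LOC115695575, the differences were small: LOC115700795 (chromosome 8) had 0.97 CPM in the Madison male and 1.54 CPM in the Knox male beside 5.52 CPM in the Merick male, and LOC115702567, a long non-coding RNA on X, had 0.37 and 0.60 CPM beside 13.5 CPM.

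The Knox male was also the lower one when the fold was asked of only 1 of the other males. Of 417 genes under 1 CPM in every female and at 5 CPM or more in the Merick male, 122 (29.3%) were more than 3 times higher in the Merick than in the Knox male, and 39 (9.35%) were more than 3 times higher than in the Madison male. The 33 genes are those that met both. Without the Madison male the rule would thus hold 122 genes, and without the Knox male 39. Over all 14327 genes at 5 CPM or more in the Merick male, whatever their female level, 17.2% exceeded the Knox male 3-fold and 14.5% exceeded the Madison male. In the other classes of male-restricted genes (under 1 CPM in every female), 11 of the 99 genes even across the males (11.1%) and 8 of the 295 genes low in the Merick male (2.71%) were more than 2 times higher in the Madison than in the Knox male, and 0 and 35 were higher in the Knox male. Over all 724 male-restricted genes 179 (24.7%) were more than 2 times higher in the Madison male, and 110 (15.2%) were so in the Knox male. Over all 1682 genes peaking in the Merick male, whatever their female level, the shares were 13.0% for the Madison male and 2.73% for the Knox male. More genes were higher in the Madison male in these wider sets too, and no share was tested against another. The even class limits any difference between males to 3-fold by its own rule, and none of these shares was tested against another.

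**Figure D3:**
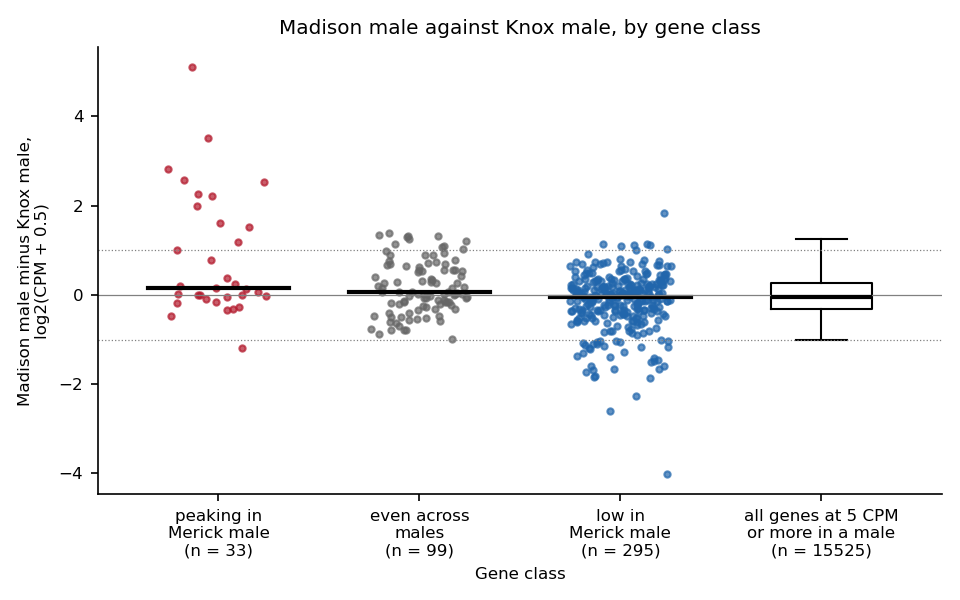
Madison male minus Knox male on the log2(CPM + 0.5) scale for the genes peaking in the Merick male, for the 2 other classes of male-restricted genes (points are genes, black lines are medians), and for all genes at 5 CPM or more in a male (box with quartiles and median, whiskers at the 5th and 95th percentiles). Dotted lines mark 2-fold, and 11 of the 33 genes lie above the upper line and 1 below the lower.

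In 15 of the 33 genes both other males were under 1 CPM. In some of these, such as LOC115702567, LOC115719880 and LOC115722073, the other males still lay above every female at these low levels. LOC115700413, which the gene table does not hold, had 347 reads (7.54 CPM) in the Merick male and no read in any of the other 5 libraries, at least 103-fold above the Madison and at least 101-fold above the Knox male against a floor of 3 counts per library. LOC115715952 (chromosome 5) had 7.17 CPM in the Merick male against 4 reads in the Madison male, 3 in the Knox male and none in a female. LOC115722073 (chromosome 3) had 6.56 CPM in the Merick male, 0.17 CPM in the Madison male and 0.099 CPM in the Knox male, again with no read in a female. Of the other 18 genes, 7 reached 1 CPM in both of these males, 10 in the Madison male only and 1 in the Knox male only.

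Set against the females, the label of a male-restricted gene held to differing degrees. In 19 of the 33 genes the Madison and Knox males both lay above every female, in 6 only 1 of them did, and in 8 neither did. Some of the 19 rest on small differences, such as 4 and 3 reads against none in LOC115715952. In LOC115702708 the Madison and Knox males had 0.51 and 0.50 CPM, against 0.40 CPM in the highest female. Of the 15525 genes at 5 CPM or more in a male, 35.6% had the Madison and Knox males both above every female. Among all 724 male-restricted genes, 670 did. The rule held the females low, so nothing is read from the comparison of these shares. The 8 genes were LOC115698856, LOC115710414, LOC115721306, LOC115700413, LOC115715000, LOC115698808, LOC115718728 and LOC115716812. They had 5.19 to 13.4 CPM in the Merick male, at most 0.24 CPM in the Madison male and at most 0.30 CPM in the Knox male. In 7 of them a female was the second highest library, and it was the Knox female each time. LOC115698856 (chromosome 8), for example, had 13.4 CPM in the Merick male and 0.097 and 0.099 CPM in the Madison and Knox males, against 0.16, 0.23 and 0.78 CPM in the Merick, Madison and Knox females. LOC115710414 (X) had 10.7 CPM in the Merick male and 0.12 and 0.27 CPM in the Madison and Knox males, against 0.34, 0.31 and 0.67 CPM in the Merick, Madison and Knox females. For these 8 genes the files show a gene high in the Merick male rather than one shared by males.

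Female reads were scarce but not absent. No female read was seen for 12 of the 33 genes (36.4%). The share was 19.9% over all 724 male-restricted genes, 21.2% over those even across the males and 11.2% over those low in the Merick male. Among male-restricted genes peaking in the Madison male it was 28.1%, and among those peaking in the Knox male 21.3%. These shares were not tested. With 3 counts over all females as the floor, the Merick male level of the 12 genes was at least 186-fold (LOC115719880) to at least 15463-fold (LOC115717719) above the females. Among the 21 genes with a female read, the Knox female was the highest female in 13, the Madison female in 5 and the Merick female in 3. The Merick female, from the same location as the male in which the genes peak, was thus seldom the highest female. Its summed level over the 33 genes was 3.85 CPM (exact Poisson 95% interval 3.26 to 4.52), against 7.65 CPM (6.64 to 8.76) in the Knox female. Over all 724 male-restricted genes the Knox female was also highest, at 136 CPM beside 101 CPM (Merick) and 108 CPM (Madison). For genes even across the males the sums were 22.0 CPM (Knox), 16.0 CPM (Merick) and 16.7 CPM (Madison). For genes low in the Merick male they were 56.6, 43.1 and 36.6 CPM in that order. A higher Knox female is therefore not particular to the 33 genes.

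The gene table, a RefSeq list of the Pink pepper assembly, holds 28 of the 33 genes. It lists 25 of them as protein coding and 3 as long non-coding RNA (10.7%), a biotype that makes up 4.99% of all male-restricted genes in the table and 1.29% of all genes at 5 CPM or more in a male. It makes up 4.35% of the male-restricted genes peaking in the Madison male and 26.5% of those peaking in the Knox male. The median span of the 28 listed genes in that assembly, introns included, is 2116 bases, beside 2500 bases for all male-restricted genes, 2362 bases for those even across the males and 3494 bases for all genes at 5 CPM or more in a male. On X lie 8 of the 28 genes (28.6%), beside 53 of 641 male-restricted genes (8.27%), 8 of 95 genes even across the males (8.42%), 20 of 266 genes low in the Merick male (7.52%) and 1766 of 14666 genes at 5 CPM or more in a male (12.04%). Chromosomes 5 and 8 hold 5 each, chromosome 2 holds 4, chromosome 7 holds 2, chromosomes 1, 3 and 6 hold 1 each, chromosomes 4 and 9 hold none, and 1 gene is not placed. These shares rest on few genes and were not tested.

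The 8 genes on X are LOC115717719, LOC115702708, LOC115703208, LOC115699408, LOC115707990, LOC115703213, LOC115702567 and LOC115710414. Their Merick male levels ran from 10.7 to 461 CPM, so all 8 also meet a minimum of 10 CPM, where they make up 8 of 17 genes in the table (47.1%). With a minimum of 2 CPM in the Merick male the X share was 10 of 67 (14.9%), with a fold of more than 2 it was 8 of 42 (19.0%), and with a female limit of 2 CPM it was 8 of 47 (17.0%). The Madison male lay above the Knox male in 6 of the 8 genes on X and by more than 2-fold in 4. Among the 19 genes on other chromosomes it lay above in 11 and by more than 2-fold in 4.

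**Figure D4:**
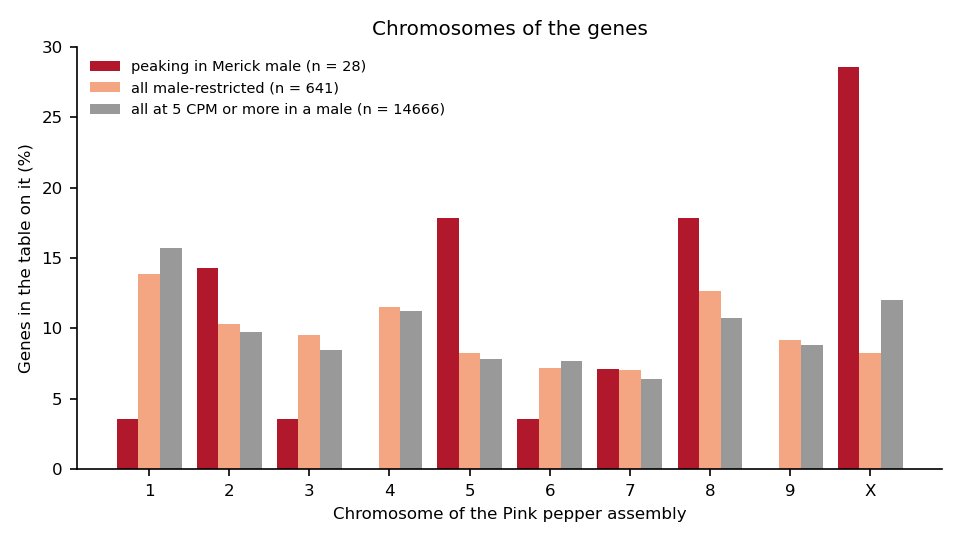
Percentage of genes on each chromosome of the Pink pepper assembly, for genes peaking in the Merick male, all male-restricted genes, and all genes at 5 CPM or more in a male, out of the genes that the table holds. X carries 28.6%, 8.27% and 12.04% of them in that order.

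In the order of genes along the Pink pepper assembly, 6 of the 27 placed genes had another of the 33 within 10 genes on either side (22.2%), as 3 pairs. Of the larger classes, 12.9% of the genes even across the males and 32.4% of those low in the Merick male had another of their own class as near; the classes differ in size, which by itself changes such shares. LOC115716274 and LOC115719880 lie 2 places apart on chromosome 2, LOC115703208 and LOC115703213 lie 7 apart on X, and LOC115718728 and LOC115721306 lie 4 apart on chromosome 2. A male-restricted gene of any kind, the 33 included, lay within 10 genes for 19 of the 27 (70.4%). For LOC115703208, LOC115703213, LOC115721306 and LOC115718728 it was only the partner named above. The shares were 47 of 93 genes even across the males (50.5%) and 5982 of 14463 placed genes at 5 CPM or more in a male (41.4%). LOC115695575, LOC115722073 and LOC115716812 each overlap another gene in the table. The sources used here do not state whether counting used strand, so reads of such a pair cannot be told apart by strand.

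LOC115721306 and LOC115718728 lie inside a run of 9 consecutive genes on chromosome 2 that all peaked in the Merick male, singled out after its values were seen. The order takes in only counted genes that the gene table places on a chromosome, so a gene missing from either list is skipped. With at least 1 CPM and more than 3 times both other males as the mark, it was the longest run in that order, ahead of 6 genes for the next in the Merick male. The same mark gave runs of at most 3 genes for the Madison male and 2 for the Knox male, where far fewer genes passed it (2023 placed genes for the Merick male, 167 for the Madison male and 322 for the Knox male). The run is made up, in order, of LOC115720979, LOC115720517, LOC115721315, LOC115721306, LOC115720997, LOC115718471, LOC115721310, LOC115718728 and LOC115718726, with spans of 885 to 1493 bases.

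Their levels followed 1 pattern across libraries, apart from the first gene. In the Merick male the 9 genes had 2.45 to 35.3 CPM. The last 8 had at most 0.073 CPM in the Madison male and at most 0.099 CPM in the Knox male. Among the females, the Knox female had 0.59 to 4.68 CPM for these 8 genes, while the Merick female had at most 0.026 CPM and the Madison female at most 0.20 CPM. LOC115720997, the highest of the 8, had 23.3 CPM in the Merick male, 0.073 CPM in the Madison male and 0.025 CPM in the Knox male, against 0, 0.14 and 4.68 CPM in the Merick, Madison and Knox females. LOC115721306 had 364 reads (7.91 CPM) in the Merick male and none in the Madison and Knox males, against 0, 0 and 0.71 CPM in the Merick, Madison and Knox females. In each of the 8 genes the Knox female was the second highest library after the Merick male. The first gene, LOC115720979, was present in all 6 libraries, at 35.3 CPM in the Merick male, 0.19 CPM in the Madison male and 2.28 CPM in the Knox male, against 1.91 to 3.18 CPM in the females. The genes on either side of the run did not follow it. LOC115720839 had 8.12 CPM in the Merick male, 4.17 CPM in the Madison male and 3.42 CPM in the Knox male, against 13.3 to 17.4 CPM in the females, and LOC115718730 had 0.84 to 1.99 CPM in all 6 libraries. The run thus crosses the rule: 6 of its other 7 genes went above the limit in the Knox female or stayed below the minimum in the Merick male, and LOC115720979 was above the limit in every female. The sources used here do not state how reads without a unique alignment were counted. If genes of the run are near-identical copies, their levels are uncertain to that extent.

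**Figure D5:**
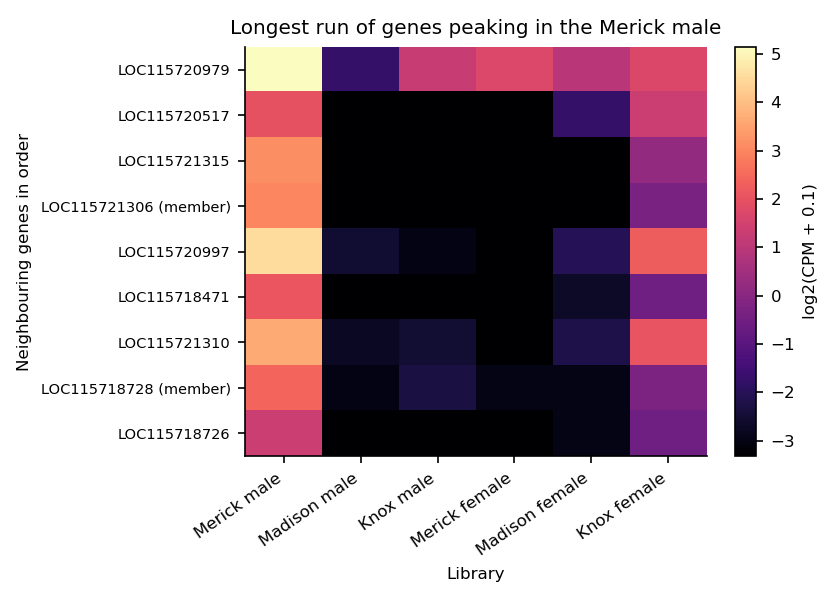
Levels of the 9 consecutive genes of the chromosome 2 run (rows, in order along the chromosome) in the 6 libraries (columns), as log2(CPM + 0.1). The Merick male and, at lower level, the Knox female are bright throughout, while the last 8 genes are dark in the other 4 libraries.

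The 33 genes are a small part of what distinguished the Merick male. In all, 1682 genes had at least 5 CPM in the Merick male and more than 3 times the level of both other males, whatever their female level, and the 33 make up 1.96% of them. By the same mark 99 genes peaked in the Madison male, of which 32 (32.3%) were under 1 CPM in every female, and 215 peaked in the Knox male, of which 61 (28.4%) were. The number of male-restricted genes that peaked in a single male was thus 33, 32 and 61 for the Merick, Madison and Knox males. All 1682 together summed to 176598 CPM in the Merick male, 33221 CPM in the Madison male and 25646 CPM in the Knox male, and to 189788 to 269468 CPM in the females.

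Across the sexes, 21 of the 33 genes passed the count filter, which asks for enough reads in at least 3 libraries, and edgeR's quasi-likelihood test called 9 of them higher in male flowers (adjusted p under 0.05 over 19276 genes). Of all tested genes 12.6% were called higher in male. The rule used this contrast and the filter used the levels of the same libraries, of either sex, so nothing is read from the count. LOC115716812, for example, passed the filter with every female above the Madison and Knox males. Without the Merick male edgeR called 10 of 21 and 23.2% of all genes, without the Knox male 11 of 29 and 4.11%, and without the Madison male 2 of 25 and 1% of all genes. Without the Knox female it called 0 of 25 and 0.584% of all genes, without the Madison female 1 of 29 and 0.572%, and without the Merick female 1 of 29 and 0.933%, where 16, 16 and 15 of the genes tested had an unadjusted p under 0.05. DESeq2 called 18 of the 19 it gave an adjusted p, and 19.4% of all genes. LOC115697801, with its 8062 reads in a single library, is among the 12 genes that the filter removed.

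Values near each limit of the rule lay close together. Just inside the fold limit lay LOC115716274, LOC115698830 and LOC115717719, with 3.04, 3.18 and 3.38 times the next male, and just outside lay LOC115717717, LOC115708863 and LOC115698180, with 2.97, 2.97 and 2.91 times. At the Merick male minimum, LOC115716812, LOC115718728 and LOC115698808 had 5.19, 5.26 and 5.49 CPM, while LOC115722671, LOC115720749 and LOC115710914 fell short with 4.95, 4.52 and 4.34 CPM. At the female limit, LOC115713458, LOC115716812 and LOC115698856 had a highest female of 0.94, 0.93 and 0.78 CPM, and LOC115721315, LOC115696251 and LOC115695572 were left out with 1.04, 1.11 and 1.22 CPM, each in the Knox female. Without the Knox female the rule would hold 52 genes. A minimum of 2 CPM in the Merick male would give 80 genes and one of 10 CPM 20 genes.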

How the data were processed

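RNA was sequenced from 3 male and 3 female hemp flower libraries. Each library has a table of raw gene counts as deposited, with 29777 genes and 5 last rows of reads outside genes, whose names are those of htseq-count. Those rows (14.9% to 18.1% of listed reads) were left out. The sources used here do not state the aligner, build, annotation or use of strand. CPM was computed on the summed gene counts; the genes and comparison classes were then taken by the limits stated in the text. Sex was compared with edgeR 4.0.16 in R 4.3.3 (TMM scaling, filterByExpr, robust quasi-likelihood test, Benjamini-Hochberg adjustment), checked on simulated counts; DESeq2 1.42.0 was an alternative. Replicates are libraries from different locations, so p-values reflect only how these libraries vary. Counts carry no molecular identifiers, and intervals and floors cover counting error only.

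The genes, classes and lists were chosen with earlier results of these data known. Genes named are the 12 highest in the Merick male, the 5 with the largest excess over the next male, those with the largest Madison and Knox difference, those nearest each limit, and neighbours; the genes high in the Merick male only, the genes on X and the run on chromosome 2 were named after their values were seen. The RefSeq gene table was used for biotype, span, chromosome and gene order only. Planned comparisons of proteins and promoters were not run, because no sequence table was used here.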

Additional observations from a re-analysis of the deposited data

Results flagged for a closer look

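For 3 of the 33 genes the difference between the Merick and the Knox library had opposite signs in the sexes, by more than 2-fold each way on the log2(CPM + 0.5) scale. For LOC115721306 Merick minus Knox was 4.07 in males and -1.27 in females, 5.34 apart. For LOC115718728 it was 3.26 in males and -1.24 in females, 4.50 apart. For LOC115698808 (chromosome 8) it was 2.91 in males and -1.31 in females, 4.22 apart. The male sign is fixed by the rule, the females are all under 1 CPM, and with 1 library per sex and location the difference was not tested.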

How the results depend on the processing

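The number of genes that met the rule was 33. It was 54 with a female limit of 2 CPM, 80 with a Merick male minimum of 2 CPM and 20 with one of 10 CPM. Leaving out 1 library loosens the rule and gave 38 to 122 genes. Other scalings (TMM, relative log expression), folds of 2 and 5, a female limit of 0.5 CPM and equal depth gave 23 to 47 genes, and 22 of the 23 under relative log expression scaling were among the 33. Under that scaling the 3 genes highest in the Merick male fell below the 3-fold limit. LOC115717125, LOC115717719 and LOC115698830 then stood at 1.57, 1.45 and 1.36 over the next male on the log2(CPM + 0.5) scale. LOC115698830 also fell below the limit under TMM, at 1.52. The median Madison minus Knox difference of 0.16 was 1.57 over genes at 1 CPM or more in the Madison or Knox male and 0.06 to 0.16 with genes chosen without 1 female. The 11 genes more than 2 times higher in the Madison male were 9 to 13 under the other pseudocounts, scalings and fold, and 12 without any one female. The 9 genes called between the sexes were 18 with DESeq2 and 0 to 11 with 1 library left out; the cause was not tested. With location as a replicate block they were 7. Location was not used as a pairing in the main fit. Deviations of the male and female of a location from their sex means correlated at 0.20 (Merick), 0.0054 (Madison) and 0.15 (Knox). The Merick male correlated at -0.12 with both the Madison and the Knox female. Between locations the values ran from -0.25 (Knox male, Merick female) to 0.16 (Knox male, Madison female). Whether location pairs the libraries was not tested. Genes with both other males above every female were 19 to 21, and the run on chromosome 2 stayed at 9 genes under other folds, minima and TMM scaling. The 264 single-gene values under other pseudocounts and scalings were of 2 kinds, Merick male over the next male and Madison minus Knox male. The rule makes the first kind positive, and it stayed at 1.18 or more on the log2(CPM + 0.5) scale or its variants. All 5 changes of sign were in the Madison minus Knox values, none of them past 2-fold. The alternatives for protein families and N-terminal windows were not run. At these depths a gene without reads in a library is limited to 0.065 to 0.11 CPM (3 counts).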
